A study of Zea mays with 18 samples.

Results

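In the 1st leaf of maize seedlings, 68 gene models stood at least 4-fold higher after treatment with epibrassinolide (EBL), a brassinosteroid, than in the control. They were chosen by that measurement. A member is a gene model with a Zm00001d identifier, with both leaf values above 0 and a log2 ratio of EBL to control leaves of at least 2 after 1 was added to each value. The table lists 43484 such gene models, of which 25458 could be compared in leaves, and the 68 were 0.267% of those. The leaf values of these 68 are therefore a description and carry no test, and what follows concerns mainly their levels and their response to EBL in shoots and roots, which the choice did not use.

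The seedlings were of the maize inbred line B73. After 3 days of germination on wet paper in the dark they were moved to tanks of nutrient solution in a growth chamber, and were grown there for 48 h with 1 nM EBL or without it as controls, per the labels. Primary roots, shoots (stem, apex and coleoptile, the sheath around the young leaves) and 1st leaves were collected from both, giving 18 samples in 6 groups of 3 biological replicates, and polyA RNA was sequenced. Each of the 6 groups is 1 column of RPKM (a read density, per feature length and per library size) as the authors combined it, so no value here has a replicate error, no difference has a test or p-value, and the depth behind a value is unknown. These are whole organs, so that more cells that express a gene and more RNA per cell cannot be told apart, and the identity of the organs was not checked against known marker genes.

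Brassinosteroids, the steroid hormones of plants, drive the elongation and division of cells. In Arabidopsis they bind a receptor kinase at the cell surface, and the signal acts through transcription factors of the BZR family on genes of growth, cell walls and hormone synthesis. In grasses they are known for setting plant height and the angle of the leaf, and maize mutants that cannot make them are dwarfs. The reference gene table used here, of another assembly of B73, matched 0 of the 68 identifiers, so they are named by identifier alone, without function, and the pathway lists drawn up by gene name had no members to count. Values below are RPKM levels. An effect compares EBL with control within an organ as a log2 ratio, with 1 RPKM added to each, and a gene model is said to have risen or fallen where its effect reached 1 or -1, which is 2-fold.

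In leaves the 68 gene models went from a median of 5.48 RPKM in control to 29.1 in EBL. Levels ran from 0.287 to 254 RPKM in control leaves and from 5.01 to 1146 RPKM in EBL leaves. Together they made up 0.102% of the summed RPKM of all gene models in control leaves and 0.402% in EBL leaves. Most lay close to the limit of the rule: the median effect was 2.16 (log2), the upper quartile was 2.28, and 61 of the 68 were under 2.5. Without the added 1, the ratio of EBL to control ranged from 4.15 to 59.6, with a median of 5.36.

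Zm00001d001075 had the largest leaf effect, 5.30, from 1.89 RPKM in control leaves to 113 in EBL leaves. Zm00001d002093 came next at 3.25, from 11.3 to 116 RPKM. The third to the tenth largest effects lay between 2.80 and 2.36, so those of Zm00001d001075 and Zm00001d002093 stood apart from the rest. The most abundant member in EBL leaves was Zm00001d002094, which went from 254 to 1146 RPKM. Zm00001d006650 followed, at 134 and 564 RPKM, and in the other organs its values were lower in EBL, going from 273 to 212 RPKM in shoots and from 167 to 89.4 RPKM in roots.

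At the limit of the rule, the members with the smallest effects were Zm00001d052015 (2.01, from 19.6 to 82.1 RPKM) and Zm00001d021038 (2.02, from 3.54 to 17.4 RPKM). Just outside it lay Zm00001d034359, from 10.1 to 43.3 RPKM, and Zm00001d028973, from 3.70 to 17.7 RPKM. How the columns are scaled decides how many pass: 14 of the 68, and no other gene model, were left when each column was scaled so that its gene models summed to the same total. Under that scaling the median leaf effect of all gene models was -0.23 in place of -0.01, and the 68 had a median leaf effect of 1.85, all of them at least 2-fold higher in EBL leaves. Median-ratio scaling went the other way: 97 gene models passed, all 68 among them.

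**Figure D1:**
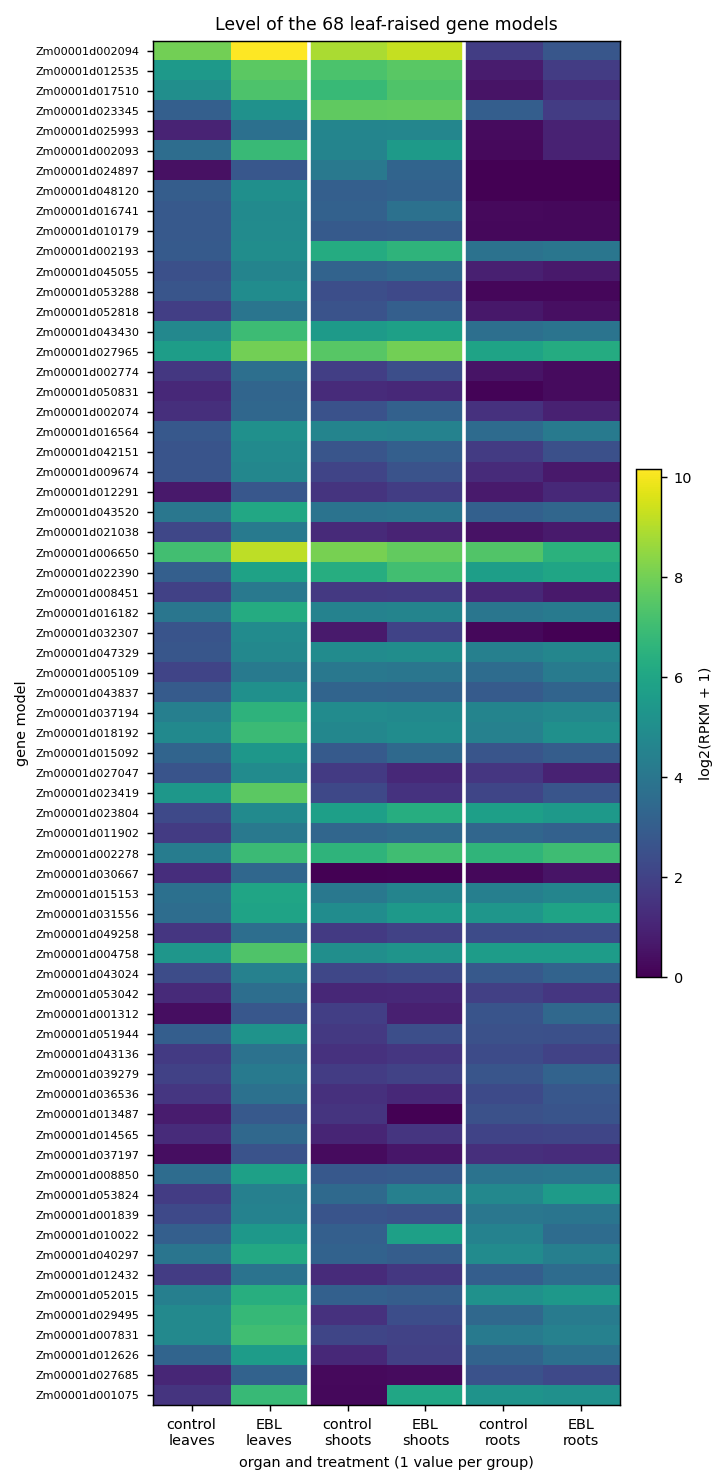
Level of each of the 68 gene models (rows) in the 6 groups (columns), as log2(RPKM + 1), 1 value per group, ordered from the gene model highest in control shoots against control roots at the top to the lowest at the bottom. The EBL leaf column is brighter than the control leaf column in every row, as the rule requires, while the shoot and root pairs are alike in most rows; Zm00001d001075, in the bottom row, goes from 0.151 to 64.1 RPKM in shoots.

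By their control levels the 68 gene models were spread over the 3 organs. The highest of the 3 control levels was found in shoots for 29 of them (42.6%), in roots for 24 (35.3%) and in leaves for 15 (22.1%). Over the 26152 gene models that reached 1 RPKM in some column, these shares were 31.1%, 45.1% and 23.8%. The lowest of the 3 was that of leaves for 22 of the 68 (32.4%), against 58.7% of the 26152. Both leaf values entered the rule, so the leaf part of this order is a description. In EBL leaves, where the rule took high values, 53 of the 68 stood above both EBL shoots and EBL roots (77.9%, against 24.9% of the 26152). Of the 332 gene models enriched in control leaves, meaning at least 10 RPKM there and at least 8-fold above both other organs, 1 was a member. That count is close to the share of members among all gene models compared in leaves, 0.267%, and says nothing about the members. The 1 member was Zm00001d023419, at 40.5 and 191 RPKM in control and EBL leaves, 3.57 and 1.84 in shoots and 3.31 and 5.38 in roots.

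Shoots and roots can be compared without the leaf values. The median level of the 68 was 6.36 RPKM in control shoots and 5.32 in control roots, against 9.81 and 9.87 for the 26152 gene models. In roots 17 of them were under 1 RPKM in control (25.0%, against 10.9% of the 26152), and in shoots 5 (7.35%, against 13.04%). Each of the 68 passed the 1 RPKM minimum by its EBL leaf value (5.01 RPKM or more), whatever its level in roots or shoots. Other gene models could enter the 26152 by a root or shoot value alone, so these medians and shares are not from like sets. Of the 65 members with both control values above 0, 18 were at least 2-fold higher in shoots than in roots (27.7%), where 11.9% of all 25700 gene models compared were. A further 13 were at least 2-fold lower in shoots (20.0%), where 14.5% of all gene models were. The other 34 lay within 2-fold. The members that differed between shoots and roots were thus 31 of 65, and the median over the 65 was 0.23 on the log2 scale, against -0.07 over all. Gene models raised 2- to 4-fold in leaves were also often unlike between the control organs. Of 1130 compared, 21.3% were at least 2-fold higher in shoots and 16.8% at least 2-fold lower. The 25700 were held to the same 1 RPKM minimum, so they too are not a like set. These differences were not tested.

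Zm00001d002094 showed the largest difference toward shoots, with 463 RPKM in control shoots and 2.59 in control roots (log2 ratio 7.01). Zm00001d012535 had 155 RPKM in control shoots and 0.722 in control roots (6.50). Both were abundant in shoots and leaves and low in roots. In the other direction Zm00001d001075 had 0.151 RPKM in control shoots and 36.1 in control roots (-5.01), and Zm00001d027685 had 0.189 and 4.93 (-2.32). Zm00001d001075 was also the single member among the 393 gene models enriched in control roots by the 10 RPKM and 8-fold rule. Members were 0.267% of all gene models compared in leaves, so 1 of 393 is close to the general share.

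**Figure D2:**
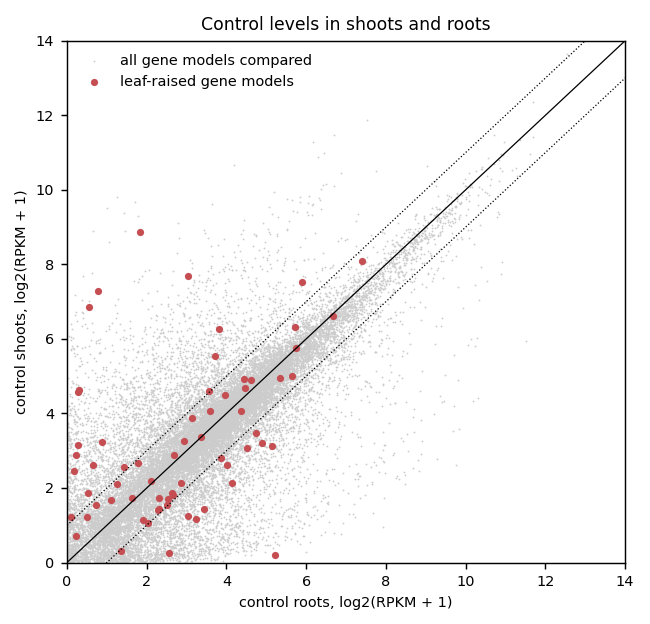
Level in control shoots against control roots, each as log2(RPKM + 1), for the gene models compared (grey) and the leaf-raised gene models among them (red, 65 points); the solid line marks equal levels and the dotted lines a 2-fold difference. The red points lie on both sides of the diagonal, with 18 above the upper dotted line, 13 below the lower one and Zm00001d002094 the farthest above.

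In shoots few of the 68 responded to EBL past 2-fold. Of 66 with both shoot values above 0, 3 rose (4.55%) and none fell, where 0.129% of all 25599 gene models compared in shoots rose and 0.434% fell. The share that rose rests on 3 gene models. The median effect in shoots was 0.26, with quartiles of -0.02 and 0.52, against a median of 0.02 and quartiles of -0.11 and 0.16 over all gene models. The effect was above 0 for 49 of the 66 (74.2%), against 53.7% of all gene models, and 43 of the 66 lay within 0.5 of 0. After scaling every column to an equal gene model total, the effect of the same 66 was above 0 for 39, with a median of 0.15, and the median of all gene models was -0.08.

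Zm00001d001075 went from 0.151 RPKM in control shoots to 64.1 in EBL shoots, an effect of 5.82. Its root levels were 36.1 RPKM (control) and 33.1 RPKM (EBL), an effect of -0.12. In EBL leaves and EBL shoots it thus stood above its level in roots, while in control leaves and control shoots it stood far below it. The shoot effect was 8.0 with 0.1 and 4.94 with 2 as the added value, because the control value is near 0.

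Zm00001d010022 was at 7.44 RPKM in control shoots and 53.9 in EBL shoots (2.70), much as in leaves, where it went from 7.38 to 41.9 RPKM (2.36). In roots it went from 21.7 to 11.2 RPKM (-0.90), which is short of 2-fold. Zm00001d032307 was at 0.650 RPKM in control shoots and 3.17 in EBL shoots (1.34), and at 5.18 and 29.0 in leaves. Control roots had 0.161 RPKM of it, and it was listed at 0 in EBL roots. The shoot effect of Zm00001d032307 was 0.96 with 2 as the added value, short of 2-fold.

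The members closest to 2-fold without reaching it in shoots were Zm00001d001312, from 2.66 to 0.840 RPKM (-0.99), and Zm00001d002093, from 22.8 to 45.5 RPKM (0.97). Among the 66, 16 had shoot effects between 0.5 and 1 and 4 between -1 and -0.5. The other 2 of the 68 were listed at 0 in 1 shoot column. Zm00001d013487 was at 1.90 RPKM in control shoots and listed at 0 in EBL shoots, and Zm00001d030667 was listed at 0 in control shoots and stood at 0.0533 RPKM in EBL shoots.

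In roots 1 of 65 members rose (1.54%) and 1 fell (1.54%), where 0.602% of all 25741 gene models compared rose and 1.61% fell. The median effect in roots was 0.21, with quartiles of -0.12 and 0.51, against a median of 0.05 and quartiles of -0.11 and 0.19 over all gene models. The effect was above 0 for 42 of the 65 (64.6%), against 58.8% of all gene models. The distance between the quartiles was thus wider among the members than among gene models in general, with 16 of the 65 between 0.5 and 1 and 6 between -1 and -0.5. Under median-ratio scaling the same 65 had a median of 0.15 and all gene models one of -0.01.

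The member that rose was Zm00001d012535, from 0.722 RPKM in control roots to 2.53 in EBL roots (1.03). It missed 2-fold under median-ratio scaling (0.89), after quantile normalization (0.92) and with 2 as the added value (0.73). Its levels were 44.5 and 195 RPKM in control and EBL leaves and 155 and 189.8 RPKM in shoots, so that in roots it stayed far below the other organs. The member that fell was Zm00001d023345, from 7.26 RPKM in control roots to 2.54 in EBL roots (-1.22), and its root effect stayed past 2-fold under each scaling and added value tried (-1.03 to -1.48). In shoots its levels were 204 and 210 RPKM, and in leaves 7.48 and 34.2 RPKM, control first.

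Of the 68, 2 were listed at 0 in both root columns, Zm00001d024897 and Zm00001d048120. Zm00001d024897 was at 16.2 and 8.73 RPKM in control and EBL shoots, and Zm00001d048120 at 7.53 and 8.05. In both root columns 14 members, these included, were under 1 RPKM (20.6%, against 8.49% of the 26152), and in both shoot columns 3 were (4.41%, against 11.6%). The members all passed the 1 RPKM minimum of the 26152 by their EBL leaf values, so these shares are not from like sets.

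**Figure D3:**
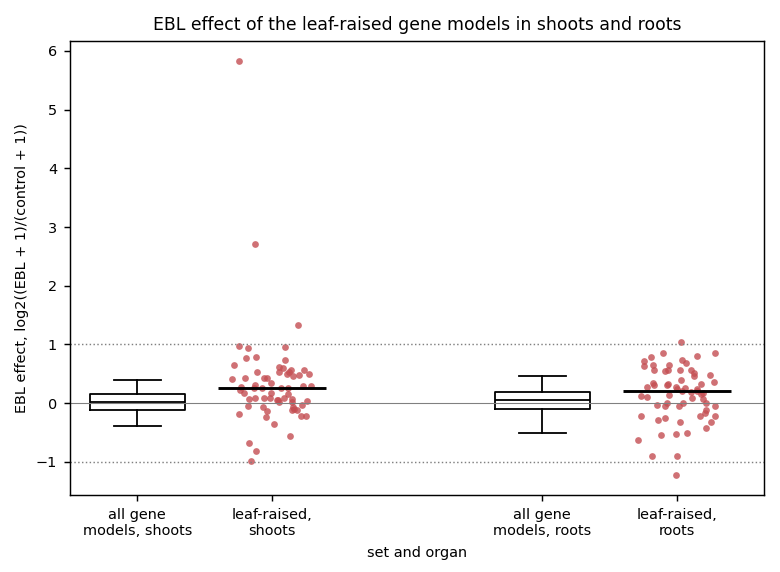
EBL effect, log2((EBL + 1)/(control + 1)) in RPKM, in shoots (left pair) and roots (right pair); boxes give the median and quartiles of all gene models compared with whiskers from the 5th to the 95th percentile, points are the leaf-raised gene models (66 in shoots, 65 in roots) and the thick bar is their median. The medians of the points, 0.26 and 0.21, lie above those of the boxes, and all but 3 points in shoots and 2 in roots lie between the dotted lines at 2-fold.

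**Figure D4:**
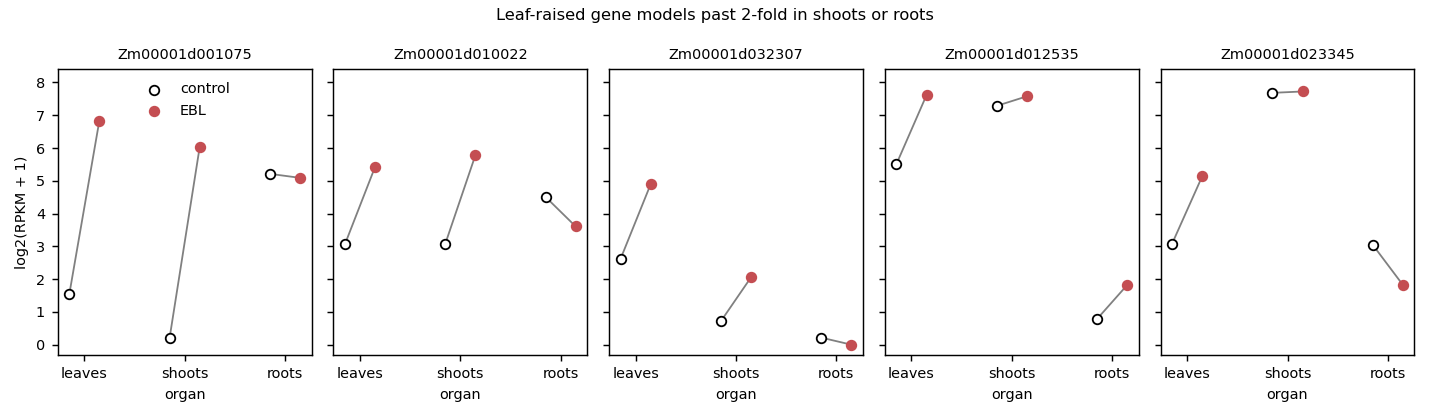
Level as log2(RPKM + 1) in control (open) and EBL (red) for the 5 leaf-raised gene models past 2-fold in shoots or roots, 1 value per group. Zm00001d001075, Zm00001d010022 and Zm00001d032307 are higher in EBL in leaves and shoots, Zm00001d012535 in leaves and roots, and Zm00001d023345 is higher in leaves and lower in roots.

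Of 63 members compared in both shoots and roots, 0 were 2-fold higher in both. Of all 25354 gene models compared in both, 3 were (0.0118%), so that the count of 0 says nothing about the members. The effects were above 0 in both organs for 29 of the 63 (46.0%), against 33.9% of all, and below 0 in both for 5 (7.94%, against 21.2%). A further 18 were above 0 in shoots alone (28.6%, against 19.9%) and 11 in roots alone (17.5%, against 25.01%). At a mean of at least 5 RPKM in the organ, 40 members had a median shoot effect of 0.27 and 34 had a median root effect of 0.28, against 0.04 in each organ for gene models at that level.

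The 1161 gene models with a leaf effect between 1 and 2 were set beside the 68. In shoots they had a median effect of 0.18 and were above 0 in 71.7% of cases, and in roots the values were 0.09 and 61.3%. Both medians lay between that of the 68 and that of all gene models, and these differences were not tested. In shoots 0.962% of them rose and 0.612% fell, and in roots 1.24% rose and 1.59% fell.

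The members were also grouped by their control levels in shoots and roots. The 18 higher in shoots than roots had a median of 23.0 RPKM in control shoots and 0.654 in control roots. Their median effects were 0.31 in shoots, where 15 of 18 were above 0, and 0.16 in roots, where 11 of 18 were. The 13 lower in shoots than roots had medians of 3.36 RPKM in control shoots and 15.2 in control roots, and median effects of 0.30 in shoots and 0.10 in roots. For those within 2-fold the median effects were 0.18 in shoots and 0.23 in roots, over the 33 compared in each.

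Zm00001d002093 and Zm00001d002094 carry consecutive numbers in their identifiers, the only such pair among the 68. Both were far higher in shoots than in roots. Their rise in EBL leaves is what the rule required of every member, so it is no sign of likeness. Zm00001d002093 went from 0.206 to 0.939 RPKM in roots (0.69), and Zm00001d002094 from 2.59 to 5.50 RPKM (0.86). In shoots their effects were 0.97 and 0.42, the latter from 463 to 621 RPKM. The gene models with the nearest numbers on either side, Zm00001d002091 and Zm00001d002095, were not members. Their leaf effects were -0.24 and -0.33, at 1.61 and 4.03 RPKM in control leaves. Neither was higher in control shoots than in control roots: Zm00001d002091 had 5.58 and 6.77 RPKM, and Zm00001d002095 had 5.08 and 9.28 RPKM. The sources used here do not say whether consecutive numbers mean neighbouring genes.

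Gene models enriched in an organ were also measured in leaves, where 48.2% of all gene models compared had an effect above 0. Of all gene models compared in leaves, 4.83% rose and 0.947% fell. The lists were chosen by the same control columns that the effects are measured against, so all gene models are not a like baseline for them. Of the 332 enriched in control leaves, 200 of 322 compared had an effect above 0, 28 rose and 13 fell, and their summed level was 264597 RPKM in control leaves against 364534 in EBL leaves. The sum over all gene models was itself higher in EBL leaves, at 1256993 RPKM against 1006945 in control leaves. Of the 100 enriched in control shoots by the same 10 RPKM and 8-fold rule, 65 of 80 had an effect above 0, 13 rose and 1 fell, and their summed level went from 309 to 745 RPKM between control and EBL leaves. In control leaves 17 of the 100 were listed at 0, and 17 in EBL leaves. The 68 include 3 of the 100, where members were 0.267% of all gene models compared in leaves: Zm00001d023345, Zm00001d024897 and Zm00001d025993. Zm00001d025993 was at 1.03 and 12.4 RPKM in control and EBL leaves, 23.9 and 24.3 in shoots and 0.240 and 0.940 in roots. Without these 3 and the root-enriched Zm00001d001075, 64 members were left, of which 2 rose and 0 fell in shoots. The part of shoot tissue in the leaf values was not tested.

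In EBL roots the same list of shoot-enriched gene models summed to 337 RPKM, against 192 in control roots, with 69 of 78 above 0, where 58.8% of all gene models were, and with 10 that rose and 1 that fell. Of all gene models compared in roots, 0.602% rose and 1.61% fell. Here too the lists were chosen by the control columns that the effects are measured against, so all gene models are not a like baseline. The 332 leaf-enriched ones went from a sum of 3341 RPKM in control to 1498 RPKM in EBL, with 264 of 310 below 0, 119 that fell and 3 that rose. In shoots the 393 root-enriched gene models summed to 1156 RPKM in EBL and 1634 in control, with 323 of 357 below 0, 46 that fell and 1 that rose, where 53.7% of all gene models were above 0. Of all gene models compared in shoots, 0.434% fell and 0.129% rose. The part of these differences in the members' root and shoot values was not tested.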

How the data were processed

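The labels describe 18 samples in 6 groups of 3; the deposited table has 1 column of RPKM per group, per the file headers, and the sources used here do not state how the authors combined the replicates. CASAVA 1.8, Trimmomatic 0.33, TopHat2 2.0.13, Cufflinks 2.2.1 and the build B73 RefGen_v4 are named in the submitters' processing notes, without roles. RPKM depends on what else is in a column: the columns summed to 1284512 (control) and 1599725 (EBL) RPKM in leaves, 934116 and 1026860 in shoots and 952314 and 962061 in roots over all 45260 features.

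The members and the lists were chosen with earlier results of these data known. Gene models were compared between 2 columns when both were above 0 and at least 1 of the 6 columns reached 1 RPKM, a minimum that every member passes. Effects are log2 ratios after adding 1 RPKM, which understates changes of low genes. A listing at 0 can be a failed estimate and received no effect. Organ-enriched lists were defined in control columns. The rule for named gene models took the largest and smallest effects, levels and organ differences; since 0 of 43484 identifiers matched the RefSeq table of Zm-B73-REFERENCE-NAM-5.0, it was reduced to about 2 identifiers per direction and comparison, plus those that make up a count of 5 or fewer, which were chosen after their values were seen, as were the consecutive pair and its neighbours. The planned tests by replicate could not be made. The choice of members and the effects were tried on simulated data. The simulated rise lay well past the limit of the rule and no simulated level was near 0. Members that are low or close to the limit were therefore not covered. Alternatives changed the added value, the scaling of columns, the minimum and the treatment of listings at 0. Python 3.11.15 with numpy 2.4.6, pandas 2.3.3 and matplotlib 3.10.9 was used.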

Additional observations from a re-analysis of the deposited data

Results flagged for a closer look

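Zm00001d023345 was flagged because its EBL effects in leaves and roots had opposite signs and both passed 2-fold: 2.05 in leaves (7.48 to 34.2 RPKM) and -1.22 in roots (7.26 to 2.54 RPKM). Its leaf value is the one that made it a member, and the difference between the organs was not tested. It was the 1 of 65 members that fell in roots (1.54%), where 1.61% of all gene models compared fell. That count is close to the general share and says nothing about the members. In control shoots it stood at 204 RPKM.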

How the results depend on the processing

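No paired analysis was possible because the table holds 1 column per group and none per replicate; for the same reason no replicate could be left out, and depth sets no stated limit. The median effects of the members stayed above 0 in shoots and roots under each alternative run. The number of members, 68 as reported, was 261 with an added value of 0.1 (all 68 among them), 35 with 2, 14 when columns were scaled to the gene model sum and 42 after quantile normalization (35 of the 68 among them). It was 97 under median-ratio scaling and 93 with listings at 0 kept, all 68 among them in both. With members chosen again, those that rose in roots (1 as reported) were 14 of 227 with 0.1, and 0 with 2, the gene model sum, median-ratio scaling, quantile normalization and a mean of at least 5 RPKM; those that fell in roots (1) were 7 with 0.1, and 0 with 2, the gene model sum, quantile normalization, a mean of at least 5 RPKM and without shoot- and root-enriched members. In shoots those that rose (3) were 19 of 234 and those that fell (0) were 10 with 0.1, and 1 fell under the gene model sum. With 0.1 added, 1.85% of all gene models compared rose and 2.98% fell in roots. In shoots 0.695% of them rose and 2.09% fell with 0.1, and 0.573% fell under the gene model sum. With the 68 kept and 0.1 added, 6 rose and 2 fell in roots, 5 rose and 1 fell in shoots, and 23 were higher and 20 lower in control shoots than control roots. With listings at 0 kept, 4 rose and 7 fell of 79 in roots, and 6 rose and 5 fell of 80 in shoots. No share over all gene models is at hand for that setting, so these counts cannot be set against one. The median root effect (0.21) was 0.36 under the gene model sum, 0.13 under median-ratio scaling and 0.14 after quantile normalization; the median shoot effect (0.26) was 0.45 and 0.15 under the first 2. The members higher (18) and lower (13) in control shoots than control roots were 63 and 76 of 228 with 0.1, 8 and 7 of 35 with 2, 4 and 4 of 14 under the gene model sum and 9 and 8 of 38 after quantile normalization; at a mean of at least 5 RPKM 10 were higher. For these counts between control shoots and control roots, the 23 and 20 with the 68 kept included, no share over all gene models is at hand under these settings. They cannot be set against one. Leaving out Zm00001d001075, which was tried only once its values were known, left 2 that rose in shoots. Where 0 fell in roots, the cause was that Zm00001d023345 no longer entered, not a smaller root effect; the causes of the other moves were not tested, and fewer or more members enter under most of these settings.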

Other observations

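A further 25 gene models passed 4-fold in leaves but were listed at 0 in control leaves, which keeps them out of the 68. A listing at 0 can be a failed estimate, so whether they rose in leaves cannot be told. Most were listed at 0 elsewhere too: 15 in control shoots and 14 in control roots, and 7 could be compared in shoots, where 1 rose and 1 fell, and 6 in roots, where 1 rose and 2 fell. Over all gene models compared, 0.129% rose and 0.434% fell in shoots, and 0.602% rose and 1.61% fell in roots. With so few compared, the counts cannot be read against these shares. Of these 25, 23 stood between 6.03 and 53.9 RPKM in EBL leaves. The other two were far higher: Zm00001d046170 at 3954 RPKM and Zm00001d038163 at 3265 RPKM. Zm00001d046170 went from 158 to 92.7 RPKM in shoots and fell from 58.2 to 2.81 RPKM in roots (log2 effect -3.96). Zm00001d038163 went from 264 to 182 RPKM in shoots and fell from 123 to 60.03 RPKM in roots (-1.02). In shoots Zm00001d027377 fell from 22.8 to 7.77 RPKM (-1.44). Zm00001d018026, with 51.6 RPKM in EBL leaves and a listing of 0 in control leaves, rose in both other organs, from 11.5 to 29.1 RPKM in shoots (log2 effect 1.26) and from 14.2 to 58.6 RPKM in roots (1.97). These were chosen after their values were seen.

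By the same 4-fold rule in leaves, 25 of 324 ENSRNA features, which are non-coding RNAs, were higher (7.72%) and 5 lower (1.54%), against 0.267% higher and 0.0432% lower for gene models. Only 324 of 1448 ENSRNA features could be compared, and both directions were more frequent among them than among gene models. PolyA RNA was sequenced and the depth behind a value is unknown, so these shares do not compare the responses of the classes to EBL. None of 69 features with GRMZM5G identifiers passed in either direction. Of 38 features with other identifiers, 2 were higher (5.26%) and 0 lower.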
